A study of Rattus norvegicus with 13 samples.

Results

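The genes described here encode the proteasome, the protease of the cytosol and nucleus that degrades ubiquitinated proteins. Rows of the deposited table were taken where the gene name began with *Psm*, a letter from a to g and a digit, and where the mean normalized count over all pups was at least 10. This gave 46 rows, 1 per gene and each under a single Ensembl transcript identifier, of 14606 rows that passed the same filter and 14716 that were deposited, and all 46 deposited rows of this name passed. The samples were posterior ventricular zone (VZ), the apical progenitor layer that lines the lateral ventricle, laser captured from male Long Evans rat pups on postnatal day 2 (PN2). The 7 control pups came from dams given vehicle in the drinking water, and the 6 PTU exposed pups came from dams given 3 ppm propylthiouracil (PTU), a drug that blocks thyroid hormone synthesis. Each pup came from a different litter, so each value is 1 animal. The comparison addresses whether transcripts of the VZ differ in pups born to PTU exposed dams. RNA integrity was below that of intact tissue according to the study's methods, and captured tissue is a mixture of cells, so fewer cells of a type and less RNA per cell cannot be told apart.

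The proteasome is built from a barrel shaped core particle and caps that bind its ends. The core has outer rings of alpha subunits, which gate the entrance, and inner rings of beta subunits, some of which carry the protease sites. The regulatory cap has a base with a ring of ATPases that unfold substrates and thread them inward, and a lid that removes the ubiquitin chain. Other caps, the activators, open the gate without ATP, and dedicated chaperones assemble the rings. Interferon induced beta subunits can replace the constitutive catalytic ones, which changes the peptides that are made for antigen presentation. Progenitors use the proteasome to clear cyclins and other short lived regulators as they divide.

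The deposited normalized counts summed to between 28137194 and 47779634 in the control pups and between 24790268 and 43042684 in the PTU exposed pups. The 3 highest rows took 32.4% to 60.1% of these totals in controls and 23.9% to 57% in PTU exposed pups. Markers of several cell types leaned 1 way, though none passed the adjusted threshold. All 7 radial glia markers were lower in PTU exposed pups (median log2 fold change -0.29), with sums of 73389 to 102492 in controls and 60993 to 80657 with PTU. All 8 choroid plexus markers were lower (median -0.78), with sums of 49562 to 138928 and 23031 to 99297. The study states that choroid plexus cells were not part of the captured tissue. All 9 neuronal markers were higher (median 0.33), with sums of 53500.4 to 77259 and 70192 to 119988. Of the 7 microglia markers, 5 were higher (median 0.06), with sums of 1455 to 2072 and 1511 to 2094, and no marker that was found was near 0 in all pups. The part of these mixtures in the results below was not tested.

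No proteasome gene passed an adjusted p of 0.05 with PTU exposure. The smallest adjusted p among the 46 was 0.133 (limma, adjusted over all 14606 rows), and 0 rows of the whole table were called (0%), where the smallest adjusted p was 0.0981. At an unadjusted p under 0.05 there were 5 proteasome genes, or 10.9%, beside 16.3% of all rows. Of these, 2 were higher in PTU exposed pups (*Psma5* and *Psmb6*; 8.11% of all rows were higher at this level), and 3 were lower (*Psme1*, *Psme1-ps1* and *Psmd8*; 8.2% of all rows were lower). The groups overlapped in every proteasome gene, whereas 0.596% of all rows had groups that did not overlap. At an unadjusted p under 0.05, 0 proteasome genes were lower under scaling to equal totals and 7 without PTU exposed pup 2. All rows at that level, in either direction, numbered 1665 and 2997 in these fits, in place of 2383.

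Under the deposited scaling most of the proteasome genes had narrow intervals near 0. The 95% interval of the log2 fold change, taken row by row, lay within 0.5 of 0 for 33 of the 46 genes (71.7%), beside 48.1% of all rows, and within 0.25 of 0 for 11 genes (23.9%), beside 7.57% of all rows. The spread between pups was small in these genes. The SD within groups on the log2 scale had a median of 0.17 (range 0.09 to 0.66), beside 0.28 over all rows, and their mean normalized counts had a median of 1197, beside 491. By sign, 17 genes had higher and 29 lower means with PTU (37% higher, beside 50.7% of all rows), with a median log2 fold change of -0.05, beside 0.0038 over all rows. The scaling to equal totals changed both the intervals and the sign, and the other scalings changed them little. When the pups were scaled to equal totals, the median of all rows moved to 0.20, 8 of the 46 intervals lay within 0.5 of 0 (17.4%, beside 8.81% of all rows), and 36 of the 46 were then higher with a median of 0.15, and the median relative to all rows was -0.06 under both scalings. Among the single genes, equal totals gave 0.43 for *Psma5* and 0.62 for *Psmb6*. With the 3 highest rows left out of those totals, 33 intervals lay within 0.5 of 0, 17 genes were higher and the median was -0.05, as under the deposited scaling, and an equal upper quartile or quantile normalization gave 33 intervals, 16 genes higher and a median of -0.06. Within 0.25 of 0 there were 0 of the 46 intervals with equal totals (0% of all rows). Weighting the pups by quality gave 7 (8.86% of all rows), and adding the replicate number to the model gave 5 (6.52% of all rows).

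**Figure D1:**
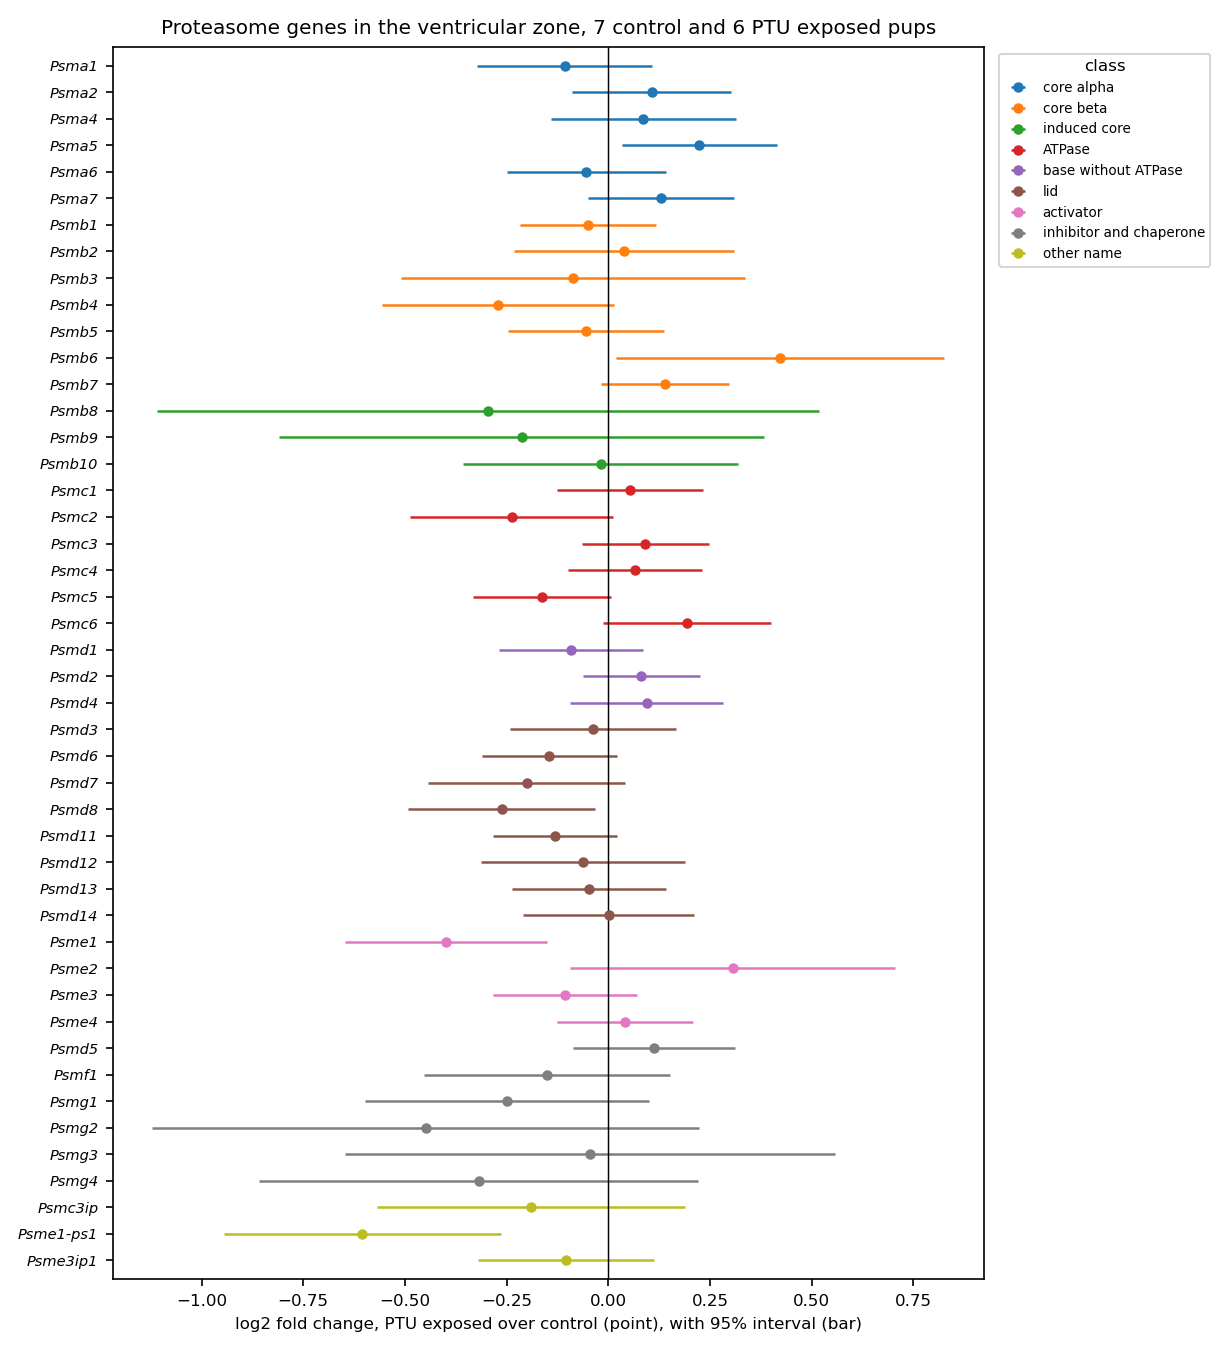
Log2 fold change of each of the 46 genes between 6 PTU exposed and 7 control pups (x axis, log2 scale), with genes on the y axis in the order of their class. Points are estimates and bars 95% intervals from limma; the intervals of *Psma5* and *Psmb6* lie above 0 and those of *Psmd8*, *Psme1* and *Psme1-ps1* below 0.

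The alpha rings were represented by 6 subunits, of which 4 had higher and 2 lower means with PTU, and a median log2 fold change of 0.10. They ran from -0.11 for *Psma1* to 0.22 for *Psma5*, and all 6 intervals lay within 0.5 of 0. Scaling to equal totals gave 6 higher and 0 lower (median 0.30, beside 0.20 for all rows). Leaving out 1 pup at a time gave medians of 0.04 to 0.14. *Psma5* had normalized counts of 888, 837, 801, 792, 749, 649 and 837 in control pups 1 to 7, and of 1005, 844, 877, 976, 913 and 931 in PTU exposed pups 1 to 6. All 6 PTU exposed pups lay above the control mean of 793 ± 77.3 (SD, n = 7), and 4 lay above the highest control. The log2 fold change was 0.22 (SE 0.09, adjusted p = 0.242 by limma), with an exact permutation p of 0.00466 before any adjustment. *Psma7* ranged from 1317 to 1529 (median 1374) in controls and from 1214 to 1694 (median 1537) with PTU, a log2 fold change of 0.13 (SE 0.08, adjusted p = 0.457 by limma). The groups overlapped there, and the PTU exposed pups had both the lowest and the highest value.

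The stretch of 250 bases before the RefSeq start site of *Psma5* is shown because *Psma5* had the smallest p of the core subunits. It lies at chr2:198584255-198584504 on the plus strand of GRCr8, and the capitals mark its 2 matches to the CCAAT box, from -70 to -66 and from -41 to -37.
Psma5: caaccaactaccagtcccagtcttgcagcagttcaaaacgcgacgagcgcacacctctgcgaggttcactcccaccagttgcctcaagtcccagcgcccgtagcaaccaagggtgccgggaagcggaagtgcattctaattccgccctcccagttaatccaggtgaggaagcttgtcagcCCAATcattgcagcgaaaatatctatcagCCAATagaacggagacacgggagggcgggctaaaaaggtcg

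Among the 7 constitutive beta subunits, 3 were higher and 4 lower, with a median of -0.05. They spanned the widest range of the subunits of the whole particle, from -0.27 for *Psmb4* to 0.42 for *Psmb6*. Scaling to equal totals gave 6 higher and 1 lower (median 0.15), and leaving out PTU exposed pup 2 gave 4 higher and 3 lower (median 0.02). *Psmb6* carries the caspase-like site. Its normalized counts were 460.2, 362, 324, 198, 224, 292 and 305 in control pups 1 to 7, and 550.3, 454, 436, 368, 362 and 286 in PTU exposed pups 1 to 6. The group means were 309 ± 87.3 (SD, n = 7) and 409 ± 91.2 (SD, n = 6), and 5 of 6 PTU exposed pups lay above the control mean but only 1 above the control range. *Psmb6* thus had a log2 fold change of 0.42 (SE 0.19, 95% interval 0.02 to 0.83), with an adjusted p of 0.291 by limma and an exact permutation p of 0.0693.

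The other catalytic subunits differed less. *Psmb7*, which carries the trypsin-like site, ranged from 1764 to 2066 (median 1927) in controls and from 1863 to 2388 (median 2083) with PTU. Its log2 fold change was 0.14 (SE 0.07, adjusted p = 0.361 by limma; exact permutation p = 0.0297), and 4 PTU exposed pups lay above the control range. *Psmb5*, which carries the chymotrypsin-like site, ranged from 1325 to 1649 (median 1504) and from 1239 to 1742 (median 1419), so that the PTU exposed pups enclosed the controls. Its log2 fold change of -0.05 had a 95% interval of -0.25 to 0.14. *Psmb4*, a structural beta subunit without a protease site, ranged from 1289 to 2125 (median 1684) and from 1009.6 to 1849 (median 1388), with a log2 fold change of -0.27 (SE 0.14, adjusted p = 0.327 by limma) that was -0.18 without PTU exposed pup 1 and -0.07 under scaling to equal totals. Here 5 of 6 PTU exposed pups lay below the control mean, and 2 below the control range.

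The window before *Psmb6* is shown because *Psmb6* had the largest positive estimate of the 46 genes. It lies at chr10:55737638-55737887 on the plus strand of GRCr8, and the capitals mark a match to the antioxidant response element, TGACNNNGC, the motif bound by *Nfe2l1* and *Nfe2l2* with Maf proteins, from -24 to -16.
Psmb6: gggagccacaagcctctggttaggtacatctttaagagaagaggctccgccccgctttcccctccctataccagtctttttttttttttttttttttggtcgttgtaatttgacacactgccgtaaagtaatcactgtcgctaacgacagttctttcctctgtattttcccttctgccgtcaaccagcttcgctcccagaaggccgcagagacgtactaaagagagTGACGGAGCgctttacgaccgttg

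All 3 interferon induced subunits were present, with a wider spread between pups than the subunits they can replace. *Psmb8*, which replaces *Psmb5*, ranged from 14.4 to 57.5 (median 32.6) in controls and from 16.1 to 33.9 (median 24) with PTU. All PTU exposed pups lay inside the control range. Its log2 fold change of -0.30 (SE 0.39) had a 95% interval of -1.11 to 0.52, a range these pups do not exclude, and the estimate ran from -0.46 without control pup 3 to -0.14 without control pup 5. *Psmb9*, which replaces *Psmb6*, ranged from 48.7 to 102 (median 81.3) and from 45.1 to 111 (median 52.4), a log2 fold change of -0.21 (SE 0.28) that ran from -0.37 without PTU exposed pup 4 to -0.12 without PTU exposed pup 6. *Psmb10*, which replaces *Psmb7*, ranged from 139 to 199 (median 183) and from 128 to 195 (median 170.4), a log2 fold change of -0.02 (SE 0.16). The direction of *Psmb10* turned without control pup 1, 4 or 6 or PTU exposed pup 1, and under scaling to equal totals. That scaling gave -0.10 for *Psmb8* and -0.01 for *Psmb9*, and weighting the pups by quality gave -0.08 for *Psmb8*. As a share of the summed normalized counts of the 6 catalytic genes, without regard to transcript length, the 3 induced ones took 5.58% to 8.38% in controls and 4.25% to 7.03% with PTU, and the groups overlapped.

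The 6 ATPases of the base were 4 higher and 2 lower, with a median of 0.06, and all 6 intervals lay within 0.5 of 0. They ran from -0.24 for *Psmc2* to 0.19 for *Psmc6*. Scaling to equal totals gave 5 higher and 1 lower (median 0.26, beside 0.20 for all rows). Leaving out 1 pup at a time gave medians of 0.03 to 0.08. *Psmc2* ranged from 1372 to 1945 (median 1660.3) in controls and from 1059.8 to 1744 (median 1472) with PTU, a log2 fold change of -0.24 (SE 0.12, adjusted p = 0.327 by limma) that was -0.04 under scaling to equal totals and -0.16 without PTU exposed pup 4, and 2 PTU exposed pups lay below all controls. *Psmc5* ranged from 1304 to 1523 (median 1376) and from 1113 to 1450.3 (median 1221), a log2 fold change of -0.16 (SE 0.08, adjusted p = 0.323 by limma; exact permutation p = 0.0262). For this subunit 4 of 6 PTU exposed pups lay below the control range. Under scaling to equal totals the *Psmc5* value was 0.04.

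The base subunits without ATPase activity stayed within a narrow band under the deposited scaling. *Psmd1* and *Psmd2*, the large scaffolds of the base, had log2 fold changes of -0.09 and 0.08, and *Psmd4*, which binds ubiquitin chains, had 0.09. All 3 intervals lay between -0.27 and 0.28. Scaling to equal totals gave 3 higher and 0 lower, with a median of 0.28 beside 0.20 for all rows. Leaving out 1 pup at a time gave medians of 0.04 to 0.10.

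Of the 8 lid subunits with a *Psmd* name, 7 were lower, with a median of -0.10, while *Sem1*, a small lid subunit outside the name rule, was at 0.25 (SE 0.09, adjusted p = 0.213 by limma). Across the fits that left out 1 pup each, 7 to 8 of the 8 were lower and the median stayed between -0.12 and -0.08. Under scaling to equal totals 7 of 8 were higher and the median was 0.11, beside 0.20 for all rows, and with the 3 highest rows left out of the totals 7 of 8 were lower again (median -0.09). *Psmd8*, a structural subunit of the lid, had normalized counts of 2380.3, 2589, 2517, 2098, 1978, 2435 and 1789 in control pups 1 to 7, and of 1586, 2449, 1725, 1773, 1843 and 1925 in PTU exposed pups 1 to 6. In this gene 5 of 6 PTU exposed pups lay below the control mean of 2255 ± 302 (SD, n = 7) and 3 lay below the control range, with PTU exposed pup 2 apart from them at 2449. For *Psmd8* the log2 fold change was -0.26 (SE 0.11, adjusted p = 0.258 by limma; exact permutation p = 0.049), and under scaling to equal totals it was -0.06.

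*Psmd6*, another structural subunit of the lid, ranged from 1521 to 1868 (median 1631) in controls and from 1346 to 1706 (median 1489.6) with PTU. Its log2 fold change was -0.14 (SE 0.08, adjusted p = 0.364 by limma; exact permutation p = 0.0379), and it was 0.06 under scaling to equal totals. *Psmd14*, the metalloprotease that cuts ubiquitin chains from substrates, had the highest value of these 8 lid subunits, 0.00048 (95% interval -0.21 to 0.21). Its controls spanned 767 to 1100.4 and all 6 PTU exposed pups lay inside that range.

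The 4 activators were 2 higher and 2 lower, with a median of -0.03, and ran from -0.40 for *Psme1* to 0.31 for *Psme2*. *Psme1* and *Psme2* encode the alpha and beta chains of the interferon inducible activator, which form 1 mixed ring. *Psme1* had normalized counts of 921, 849, 922, 794, 832, 1115 and 738 in control pups 1 to 7, and of 619.7, 894, 661, 639, 643 and 564 in PTU exposed pups 1 to 6. The means were 882 ± 122 (SD, n = 7) and 670.1 ± 115 (SD, n = 6). Except for pup 2, at 894, the PTU exposed pups all lay below the lowest control. The log2 fold change was -0.40 (SE 0.12, 95% interval -0.65 to -0.15), with an adjusted p of 0.148 by limma and an exact permutation p of 0.00816.

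Without PTU exposed pup 2 the groups did not overlap for *Psme1*, and its log2 fold change was -0.49 with an adjusted p of 0.0394 by limma. In that fit 179 of the 14606 rows of the table were called, among them *Psme1* and its pseudogene *Psme1-ps1* and no other row of the 46. Groups that did not overlap were found there in 371 rows of the table, beside 87 with all pups. Under scaling to equal totals *Psme1* was at -0.20 with an adjusted p of 0.673 by limma and *Psme1-ps1* at -0.40 with one of 0.469, where the median of all rows was 0.20. With the 3 highest rows left out of the totals they were at -0.39 (adjusted p = 0.154 by limma) and -0.60 (adjusted p = 0.138). No other pup, when left out, brought *Psme1* past the threshold. PTU exposed pup 2 also had the highest sum of ependyma markers among the PTU exposed pups (1717, beside 766 to 1013 in the others), the highest of microglia markers (2094, beside 1511 to 1872) and the highest of radial glia markers (80657, beside 60993 to 78349). Its sum of endothelium markers was the lowest (2356, beside 2597 to 3363). For neurons, intermediate progenitors, choroid plexus and the oligodendrocyte lineage it was neither highest nor lowest. The part of these cells in its *Psme1* value was not tested.

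*Psme2* pointed the other way. Its normalized counts were 140.1, 100, 143, 106, 124, 107 and 125 in control pups 1 to 7, and 144, 119.7, 146, 215, 183 and 107 in PTU exposed pups 1 to 6. Of the 6 PTU exposed pups, 4 lay above the control range, 2 of these by only a few counts. *Psme2* had a log2 fold change of 0.31 (SE 0.19, 95% interval -0.09 to 0.71), with an adjusted p of 0.426 by limma and an exact permutation p of 0.0851, and without PTU exposed pup 4 it was 0.20. Within each pup, the normalized count of *Psme1* was 5.93 to 10.4 times that of *Psme2* in controls (median 6.69) and 2.97 to 7.48 times with PTU (median 4.42), and the groups overlapped. These ratios do not account for transcript length and serve only to compare pups.

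The remaining activators stayed closer to 0. *Psme3*, which forms a nuclear activator ring of its own, ranged from 1259 to 1666 (median 1477) in controls and from 1249.9 to 1453 (median 1375) with PTU. All 6 PTU exposed pups lay below the control mean, and the log2 fold change was -0.11 (SE 0.08, adjusted p = 0.542 by limma), or 0.09 under scaling to equal totals. *Psme4*, a large single chain activator that binds the core in the nucleus, ranged from 2535 to 3292 (median 2935) and from 2684 to 3469.7 (median 2935), with a log2 fold change of 0.04 (95% interval -0.13 to 0.21). The *Psme4* value was 0.24 under scaling to equal totals and -0.0014 without PTU exposed pup 3.

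The windows before *Psme1* and *Psme2* are shown together because the genes are partners in 1 ring, lie close to each other on chromosome 15 and had estimates of opposite sign. The *Psme1* window, at chr15:33038721-33038970 on the plus strand of GRCr8, held none of the 4 motifs searched. The *Psme2* window, at chr15:33052752-33053001 on the minus strand, held a match to the core of the interferon stimulated response element, GAAANNGAA, from -53 to -45, given in capitals.
Psme1: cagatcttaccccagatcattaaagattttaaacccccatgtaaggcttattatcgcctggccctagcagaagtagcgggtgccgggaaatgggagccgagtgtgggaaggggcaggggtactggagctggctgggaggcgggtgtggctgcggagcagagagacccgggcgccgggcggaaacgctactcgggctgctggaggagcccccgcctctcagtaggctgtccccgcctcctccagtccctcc
Psme2: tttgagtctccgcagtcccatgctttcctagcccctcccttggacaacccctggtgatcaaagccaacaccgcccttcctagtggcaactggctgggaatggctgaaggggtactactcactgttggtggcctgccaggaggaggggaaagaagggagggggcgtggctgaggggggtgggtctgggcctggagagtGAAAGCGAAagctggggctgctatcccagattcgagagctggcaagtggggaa

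**Figure D2:**
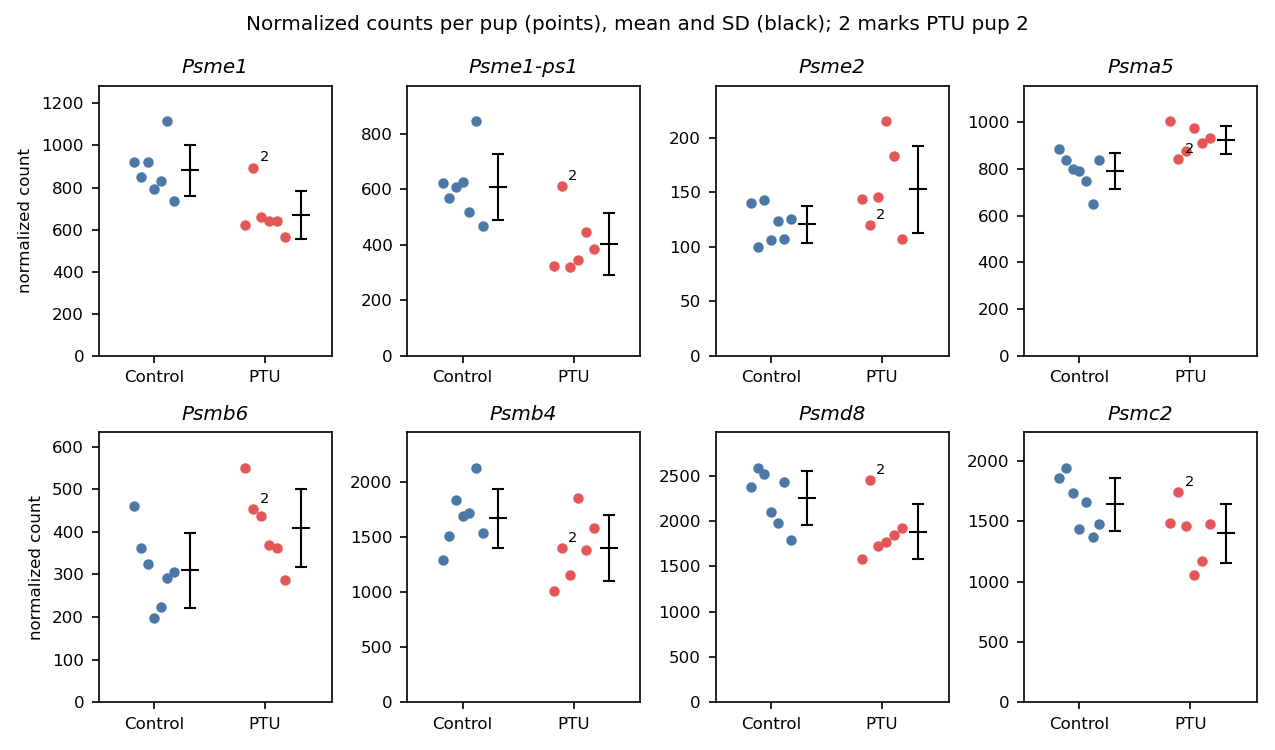
Normalized counts per pup (y axis, from 0) of 8 genes in the 7 control (blue) and 6 PTU exposed (red) pups; black marks give the mean and SD, and the digit 2 marks PTU exposed pup 2. PTU exposed pup 2 sits at 894 for *Psme1*, 612 for *Psme1-ps1* and 2449 for *Psmd8*, above the other PTU exposed pups in each.

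The inhibitor and the assembly chaperones were 1 higher and 5 lower, with a median of -0.20, and 2 of the 6 intervals lay within 0.5 of 0. Under scaling to equal totals they were 3 higher and 3 lower, with a median of 0.0013. *Psmg1* to *Psmg4*, the chaperones that build the alpha ring of the core, were all lower, with a median of -0.28, or -0.08 under scaling to equal totals. Their spread between pups was wide, and leaving out 1 pup at a time gave 3 to 4 of 4 lower. *Psmg1* ranged from 305 to 457 (median 415) in controls and from 241 to 529.7 (median 301) with PTU, a log2 fold change of -0.25 (SE 0.17, adjusted p = 0.462 by limma) that ran from -0.39 without PTU exposed pup 2 to -0.16 without PTU exposed pup 5 and was -0.05 under scaling to equal totals. Although 4 PTU exposed pups lay below all controls, pup 2 lay above them all. *Psmg2* ranged from 79 to 192 (median 91.6) and from 30.9 to 156 (median 74.9), a log2 fold change of -0.45 (SE 0.32, adjusted p = 0.493 by limma), and control pup 1 stood apart at 192. Leaving out 1 pup moved the *Psmg2* value from -0.66 (without PTU exposed pup 5, at 156) to -0.20 (without PTU exposed pup 2, at 30.9). *Psmd5*, a chaperone of the base, was the one above 0, at 0.11 (95% interval -0.09 to 0.31), and *Psmf1*, an inhibitor of the core, was at -0.15 (95% interval -0.45 to 0.15).

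The name rule also took 3 rows that are not proteasome subunits. *Psmc3ip* encodes a partner of the meiotic recombinases and *Psme3ip1* a protein that binds *Psme3*; their log2 fold changes were -0.19 and -0.10. *Psme1-ps1*, annotated as a pseudogene of *Psme1*, is given here after its values were seen, because reads of *Psme1* and of its copy may not be separable. It had normalized counts of 622, 569, 608, 627, 520.1, 846 and 469 in control pups 1 to 7, and of 324, 612, 319.8, 344, 445 and 385 in PTU exposed pups 1 to 6. As for *Psme1*, control pup 6 was the highest of all, and pup 2 was the one PTU exposed pup inside the control range, while the order of the remaining pups differed. The log2 fold change was -0.60 (SE 0.16, 95% interval -0.95 to -0.26), with an adjusted p of 0.133 by limma and an exact permutation p of 0.00816.

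Added to *Psme1*, the 2 rows together gave 1490.3 ± 236 (SD, n = 7) in controls and 1075 ± 218 (SD, n = 6) with PTU. The log2 fold change of the sum was -0.48 (SE 0.12, adjusted p = 0.133 by limma; exact permutation p = 0.00699). The pseudogene took 38.5% to 44.1% of the sum in controls and 32.6% to 40.9% with PTU. RefSeq names pseudogene copies for 18 of the 46 genes, among them *Psma5*, *Psmb6*, *Psmd8* and *Psme2*, and how the authors' counting model shared reads with such copies could not be examined.

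Within a pup the classes did not move as 1 block. The median deviation of the 46 genes from the control means, on the log2 scale, ran from -0.06 to 0.05 in control pups and from -0.09 to 0.06 in PTU exposed pups, and 14 to 31 and 16 to 30 of the genes lay above the control mean. The lid median was below 0 in all 6 PTU exposed pups, from -0.24 to -0.03, while in control pups it ran from -0.11 to 0.18, and the groups overlapped. These deviations are under the deposited scaling, and equal totals gave 7 of 8 lid genes higher. The alpha ring median ran from -0.11 to 0.16 with PTU and from -0.15 to 0.10 in controls. The ATPase median ran from -0.11 to 0.13 and from -0.10 to 0.16, so for these classes the groups covered almost the same range.

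**Figure D3:**
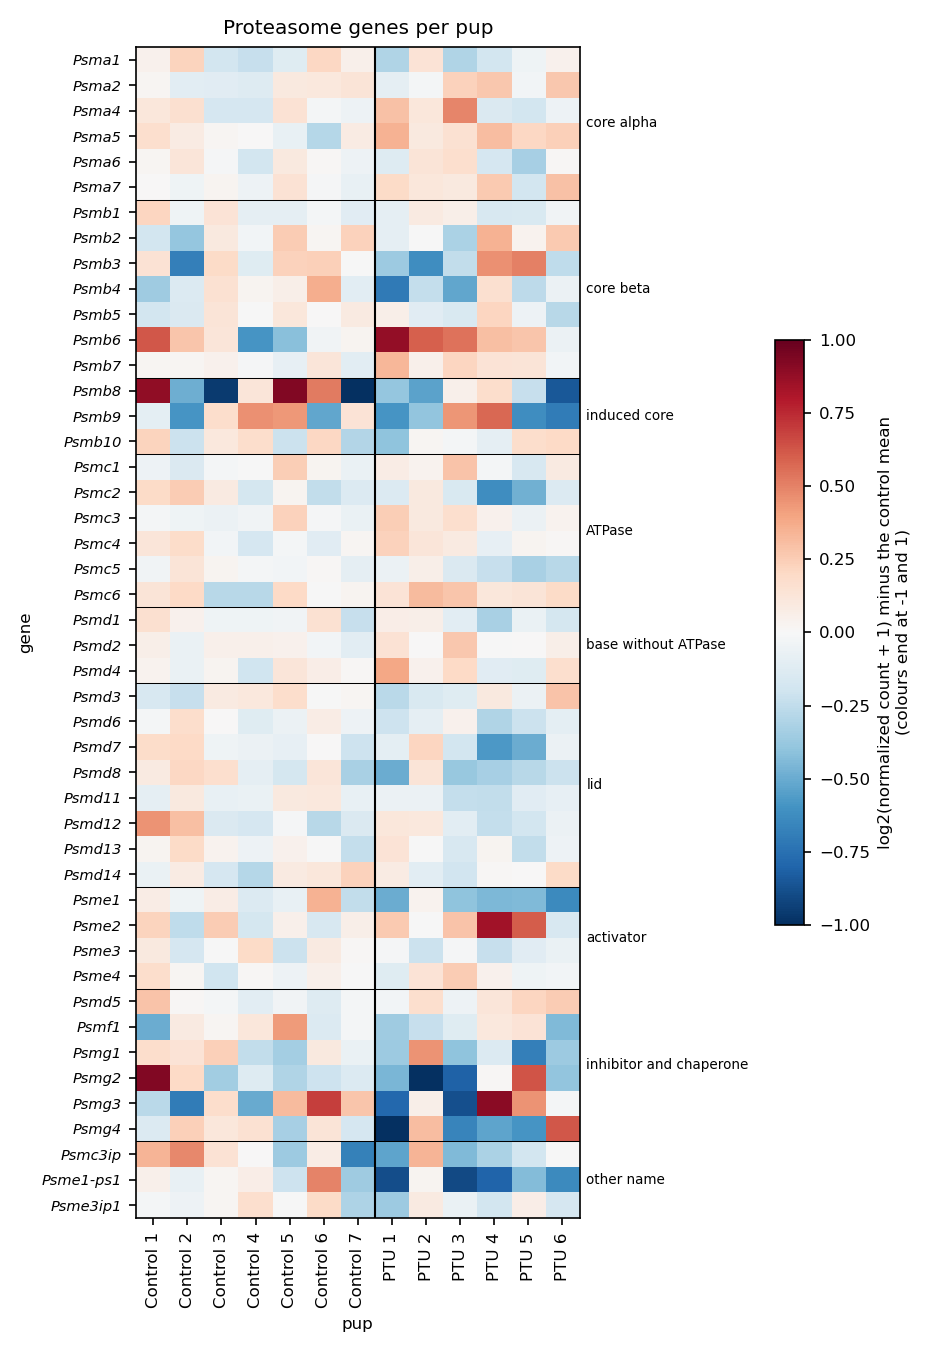
Difference of each gene's log2(normalized count + 1) from its control mean (colour, ending at -1 and 1) for 46 genes (rows, by class) in 13 pups (columns; the vertical line parts control from PTU exposed pups). *Psmb8*, *Psmg2* and *Psmg3* vary most between pups of the same group, with SDs within groups of 0.66, 0.62 and 0.60, while *Psmd2* and *Psmd11* vary least at 0.09.

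Other large complexes that are also built from many subunits in fixed proportion are set beside these classes as a description. The 87 cytosolic ribosomal protein rows had 60 higher and 27 lower, with 0.16 as the median log2 fold change, and 24 of them (27.6%, beside 8.11% of all rows) were higher and 2 (2.3%, beside 8.2%) lower at an unadjusted p under 0.05. The 71 mitochondrial ribosomal protein rows had 43 higher and 28 lower and a median of 0.05, with 4 higher (5.63%) and 1 lower (1.41%) at that level. The 8 rows of the chaperonin CCT, which folds actin and tubulin, had 6 higher and 2 lower and a median of 0.10, with 3 higher (37.5%) and 0 lower. For the 30 subunits of the core and regulatory particles the corresponding values were 14 higher, 16 lower and -0.04. All these counts are under the deposited scaling, and equal totals gave 27 higher, 3 lower and a median of 0.16 for the 30 subunits. Without PTU exposed pup 2 the 30 subunits were 15 higher and 15 lower, with a median of 0.0019.

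**Figure D4:**
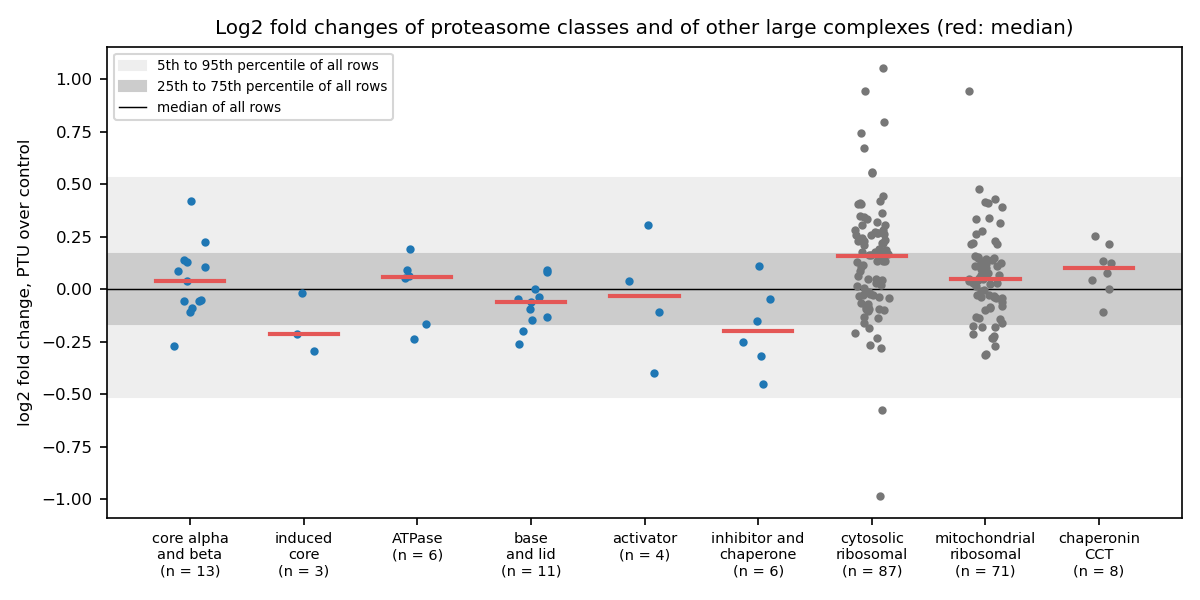
Log2 fold change between PTU exposed and control pups (y axis) of each gene, by proteasome class (blue) and for 3 other complexes (grey), with red lines at the medians and grey bands for the percentiles of all 14606 rows. The medians of the induced subunits (-0.21) and of the inhibitor and chaperones (-0.20) are the lowest drawn, the ATPase median is at 0.06, and the cytosolic ribosomal median is at 0.16.

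The genes around the proteasome were followed in a list of 41 genes for its regulators, ubiquitin, the shuttles and the induction of the interferon forms. Of these 18 were higher and 23 lower, with a median of -0.03, and 0 passed the adjusted threshold. At an unadjusted p under 0.05, 4 were higher (9.76%, beside 8.11% of all rows) and 2 lower (4.88%, beside 8.2%), a share near that of all rows, and the genes below are given by the rule for named genes. The 2 lower ones were the transcription factors that bind the antioxidant response element. *Nfe2l2*, the main factor of the oxidative stress response, ranged from 540.0 to 954 (median 769) in controls and from 342 to 716 (median 408) with PTU. All 6 PTU exposed pups lay below the control mean and 5 below the control range, and the log2 fold change was -0.75 (SE 0.17, adjusted p = 0.122 by limma; exact permutation p = 0.00583). PTU exposed pup 2 was again the highest of its group, at 716.

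*Nfe2l1*, the factor that raises proteasome transcription when the proteasome is inhibited, ranged from 2846 to 3414 (median 3041) in controls and from 2472 to 2896 (median 2689) with PTU. Of the PTU exposed pups 4 lay below the control range, and the log2 fold change was -0.20 (SE 0.07, adjusted p = 0.187 by limma; exact permutation p = 0.00524). The higher genes were *Ubqln2*, a shuttle that brings ubiquitinated proteins to the proteasome (0.26, SE 0.08), the lid subunit *Sem1* (0.25, SE 0.09), *Akirin2*, which carries proteasomes into the nucleus (0.23, SE 0.09), and the ubiquitin conjugating enzyme *Ube2k* (0.18, SE 0.08). Their adjusted p-values ran from 0.156 to 0.292 by limma, and all 6 PTU exposed pups lay above the control mean for *Ubqln2*, *Akirin2* and *Ube2k* and 5 of 6 for *Sem1*. *Pomp*, which matures the core, and *Adrm1*, a ubiquitin receptor of the base, were at 0.08 (95% interval -0.25 to 0.42) and -0.04 (95% interval -0.25 to 0.17). All these pathway values are given under the deposited scaling and with all pups only. Scaling to equal totals moved the median of all rows to 0.20, the size of the *Nfe2l1* difference.

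Promoter windows were found for 41 of the 46 genes, and 4 motifs were searched on both strands in the 250 bases before the start site. The antioxidant response element TGACNNNGC was matched in 5 of the 41 (12.2%), beside 10.1% of 33469 promoters, in *Psmb2*, *Psmb5*, *Psmb6*, *Psmd1* and *Psme4*. These 5 genes had log2 fold changes of 0.04, -0.05, 0.42, -0.09 and 0.04. The CCAAT box was matched in 19 (46.3%, beside 34%), the interferon element core GAAANNGAA in 7 (17.1%, beside 8.12%) and AGGTCA, the repeat unit of thyroid hormone response elements, in 6 (14.6%, beside 14.1%). The interferon element genes were *Psma4*, *Psmb2*, *Psmb3*, *Psmb10*, *Psmd7*, *Psmd11* and *Psme2*. A match is a stretch of letters and not a measured binding site.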

How the data were processed

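The data are RNA-Seq of captured VZ, 7 controls and 6 PTU exposed pups. Reads were trimmed (Trimmomatic), mapped by STAR 2.7.8a on mRatBN7.2 and quantified in Partek by the authors, who divided the estimated counts by median ratio factors. The deposited signal is therefore a normalized count, not a raw count. The methods name a RefSeq annotation while the rows carry Ensembl transcript identifiers, so whether a row sums a gene's transcripts or is 1 transcript is not given in the sources used here. Columns with the authors' DESeq2 comparison (p-values, FDR, ratios, fold changes and group means) were not used. Between 88.7% and 90.3% of values from 20 to 150 were whole multiples (tolerance 0.05 of a step) of a step per pup, which gave about 22292377 to 44384774 reads, and no count model was run on them.

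Rows of mean 10 or more were compared as log2(normalized count + 1) with limma 3.58.1 in R 4.3.3 (empirical Bayes, variance trend, Benjamini-Hochberg over all rows, threshold 0.05), which was tested on simulated data first. Fold changes on this scale understate those of low rows. Exact permutation p-values are two-sided over all 1716 regroupings of the pups (smallest possible 0.000583) and are not adjusted. The members, classes and lists were chosen with earlier results of these data known. Genes given in full were the 2 rows of smallest p in each class (base and lid taken as 1 class, the other names left out), the catalytic, induced and activator genes and any member whose groups did not overlap. Of the other pathway genes, the 6 of smallest p and *Nfe2l1*, *Pomp*, *Adrm1* and *Sem1* were named. Values of the members are given for all pups or as the lowest, median and highest, with every pup in the plot of deviations. Some genes of the pathway list are not reported here, and the subunits *Psma3*, *Psma8*, *Psmb11*, *Psmd9* and *Psmd10* were not analysed here. Markers of intermediate progenitors (1 of 4 higher, median -0.23), ependyma (1 of 3 found, median -0.03), endothelium (3 of 5 found, 0.24) and the oligodendrocyte lineage (4 of 4, 0.18) were also read, and no erythrocyte marker was found. Promoter sequences are RefSeq's for GRCr8, a later build than the files', and all 46 genes were matched by symbol. Transcript lengths were not used here, so levels of different genes were not ranked. Alternatives were 12 other settings, 1 added after seeing the data (*Psme1* with its pseudogene) and leaving out each of 13 pups. The closest 2 pups differed by a mean of 0.279 on the log2 scale, so none was a copy.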

Additional observations from a re-analysis of the deposited data

Results flagged for a closer look

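Over the genes given in full, 40 groups of pups were examined and 2 held a pup far from its group. The rule picks out about 1 group in 20. The same pups recur in every gene, so the count cannot tell a real difference from chance. For *Psme1*, PTU exposed pup 2 had 894 normalized counts while the other 5 had 564 to 661, a gap of 0.655 of the range of the group on the log2 scale. For *Psmg2*, control pup 1 had 192 while the other 6 had 79 to 116, a gap of 0.57 of the range on the log2 scale.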

How the results depend on the processing

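Under the 12 other settings no proteasome gene was called. With pups weighted by quality 40 rows of the table were called and 6 proteasome genes were lower at an unadjusted p under 0.05. All rows at that level, in either direction, numbered 2848 in place of 2383. Without a variance trend 1 proteasome gene was higher at that level (2213 of all rows in either direction). With an equal upper quartile 5 proteasome genes were lower (2385 of all rows in either direction). With equal totals per pup 0 were lower at that level, 36 of 46 were higher by sign with a median of 0.15 (all rows 0.20), and 37 rows of the table had groups that did not overlap. That scaling also reversed *Psmb10* (0.18), *Psmb5* (0.15), *Psmc5* (0.04), *Psmd6* (0.06) and *Psme3* (0.09). When the 3 highest rows were left out of the totals, 17 of 46 were higher (median -0.05, all rows 0.0092), 80 rows had no overlap and these 5 genes were negative again (-0.16 to -0.01), so that shift came from those rows. The cause of the other differences was not tested. Replicate numbers were shared between groups, but pups came from different litters and same-numbered pups had correlations of -0.07 to 0.20, 4 of 6 over 0.1, and for 1 of 6 numbers the best match was the same-numbered pup, so the numbers were not taken as pairs. With the replicate block 18 rows were called and 7 proteasome genes were lower at an unadjusted p under 0.05. All rows at that level then numbered 2955 in either direction. Leaving out 1 pup at a time gave 0 to 179 rows called, 0 to 2 proteasome genes called, 0 to 3 higher and 2 to 7 lower at an unadjusted p under 0.05, 99 to 371 rows and 0 to 2 proteasome genes without overlap. The highest of these, 179, 2, 7, 371 and 2, came without PTU exposed pup 2, when *Psme1-ps1* had an adjusted p of 0.0324 by limma. Without control pup 6, 7 rows were called, and without it or PTU exposed pup 1, 0 proteasome genes were higher at an unadjusted p under 0.05. Without control pup 4 or 7, or PTU exposed pup 2 or 3, 1 was higher, and without PTU exposed pup 6, 5 were lower. Without control pup 1, 1 proteasome gene had no overlap, beside 138 rows of the table. Over the fits that left out 1 pup, all rows at an unadjusted p under 0.05 numbered 1791 to 2997 in either direction. *Psmb10* ran from -0.07 to 0.06 and *Psme4* from -0.0014 to 0.07 over these fits. The low levels of *Psmb8* and *Psmb9*, and of *Psmg2*, removed them at a minimum mean of 100.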
